A study of Mus musculus with 12 samples.

Results

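The interferon-stimulated effector genes described here are 40 mouse genes whose products block viruses, sense their nucleic acids or tune the interferon response itself. They were taken from a fixed list of symbols, from which transcription factors of the pathway, guanylate-binding proteins and the Slfn and Ifi200 families had been left out. All 40 had a row among the 11786 genes of the table, and all 40 passed the filter on low values that left 11785 genes to test. RNA had been sequenced from mouse bone-marrow-derived dendritic cells. The 4 groups, with 2 libraries each, were wild-type cells alone (wt, DC alone), wild-type cells with tumour lysate (wt, DC+tumor lysate), and the same pair from cells labelled ythdf1-/-, called KO-labelled below. The lysate was necrotic B16-OVA, a mouse melanoma line that carries ovalbumin, given overnight, after which the dendritic cells were purified. The sources used here do not give strain, age, sex or the altered part of Ythdf1, nor whether a group's libraries are from different mice. The p-values therefore measure the spread between these libraries, which may be technical. Another 4 samples, of RNA immunoprecipitation, were not analysed here.

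Interferons of type I bind the receptor IFNAR on the cell that made them and on its neighbours. The kinases JAK1 and TYK2 on the receptor then start a signal to the nucleus, where transcription factors bind the interferon-stimulated response element, a DNA motif in the promoters of these genes. Dendritic cells hold a tonic level of this programme and raise it when they sense nucleic acids of microbes or dying cells. Ythdf1, the gene that the labels name as lost, encodes a protein that binds the N6-methyladenosine mark on mRNA and is known to promote translation of the marked transcripts.

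All values below are log2 levels deposited by the authors, or differences between them, so a difference of 1 is a doubling of the deposited level. The levels are read as a regularized logarithm, which understates how much low-count genes change. Fold values below share this limit. Without counts, sequencing depth is unknown and no counting error can be given. "Rose", "fell", "higher" and "lower" are used for genes past an adjusted p of 0.05 in limma's moderated test, fitted to all 8 libraries and adjusted by Benjamini-Hochberg over all 11785 genes. Errors after ± are standard errors of that fit, with 2 libraries in each group.

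Promoter windows are printed for a few members because many of them hold a short motif of the interferon response. The windows come from RefSeq on GRCm38.p6, run from 250 bases before to 50 bases after a gene's start, and were found for 29 of the 40 members (the first window listed for a gene was used). The letters GAAA, then any 2 bases, then GAAA again, a core of the interferon-stimulated response element, were searched on both strands, with overlapping matches counted. They stood in the window of 13 of these 29 members (44.8%), against 943 of 27025 genes with a window (3.49%). Of the 13, 8 held at least 2 copies. The first base of the matches lay between positions -188 and 33, counted from the start. In the windows below, read 5′ to 3′ along each gene's strand, capitals mark the matching letters, and a run of capitals longer than 10 holds overlapping matches.
Isg15 (chr4:156200769-156201068, minus strand): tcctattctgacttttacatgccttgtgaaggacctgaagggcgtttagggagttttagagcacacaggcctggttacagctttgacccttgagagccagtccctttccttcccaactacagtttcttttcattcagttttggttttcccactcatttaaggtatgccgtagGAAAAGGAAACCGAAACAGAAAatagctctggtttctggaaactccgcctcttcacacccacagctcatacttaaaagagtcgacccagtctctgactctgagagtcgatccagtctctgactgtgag
Ifit3 (chr19:34583279-34583578, plus strand): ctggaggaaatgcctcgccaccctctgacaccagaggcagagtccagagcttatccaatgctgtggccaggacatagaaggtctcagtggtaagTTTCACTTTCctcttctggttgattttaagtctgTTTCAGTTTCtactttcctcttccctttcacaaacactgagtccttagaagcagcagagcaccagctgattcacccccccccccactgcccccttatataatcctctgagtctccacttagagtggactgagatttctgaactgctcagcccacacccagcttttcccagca
Ifit3b (chr19:34607707-34608006, plus strand): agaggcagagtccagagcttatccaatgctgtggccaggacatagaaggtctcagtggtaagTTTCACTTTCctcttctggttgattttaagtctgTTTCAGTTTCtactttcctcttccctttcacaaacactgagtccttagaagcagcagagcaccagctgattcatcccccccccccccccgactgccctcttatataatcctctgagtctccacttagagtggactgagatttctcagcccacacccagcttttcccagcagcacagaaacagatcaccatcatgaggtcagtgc
Rsad2 (chr12:26456403-26456702, minus strand): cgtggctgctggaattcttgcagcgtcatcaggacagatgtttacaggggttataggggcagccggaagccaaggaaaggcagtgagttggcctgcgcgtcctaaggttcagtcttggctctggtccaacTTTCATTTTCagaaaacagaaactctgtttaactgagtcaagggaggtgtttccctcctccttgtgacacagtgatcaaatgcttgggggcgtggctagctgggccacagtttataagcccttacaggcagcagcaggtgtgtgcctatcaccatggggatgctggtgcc
Bst2 (chr8:71537423-71537722, minus strand): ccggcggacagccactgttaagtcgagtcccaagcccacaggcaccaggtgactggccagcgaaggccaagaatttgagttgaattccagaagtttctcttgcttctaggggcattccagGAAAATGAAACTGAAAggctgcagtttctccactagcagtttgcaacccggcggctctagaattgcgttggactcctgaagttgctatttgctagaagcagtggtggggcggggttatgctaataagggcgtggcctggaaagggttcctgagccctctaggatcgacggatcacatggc

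Isg15 held 3 overlapping copies, while Ifit3 and Ifit3b each held 2 in a stretch of 169 bases that both windows share letter for letter. Ifit3 and Ifit3b are near-identical copies, so reads could have been split or shared between them and their values cannot be told apart with certainty. Bst2 is shown because it held 2 copies and yet passed no test in any comparison. A match of letters is a description of the window and was not tested as a binding site. Of the 13 members with the letters, 8 rose with lysate in wild type, 1 fell, and 12 were lower in KO-labelled cells without lysate. Of the 16 members whose window lacked them, 4 rose with lysate in wild type and 12 were lower in KO-labelled cells without lysate. Over all genes tested, lysate raised 10.2% and lowered 11.3% in wild type, and 9.23% were lower in KO-labelled cells without lysate.

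The table was checked before the comparisons. Ythdf1 itself lay at 9.58 and 9.43 in wild type alone, 9.72 and 9.58 in wild type with lysate, 9.53 and 9.43 in KO-labelled alone and 9.51 and 9.46 in KO-labelled with lysate. These values overlap between genotype labels without lysate, and the difference of -0.030 ± 0.081 did not pass the test (adjusted p = 0.85). With lysate it was -0.16 ± 0.081 (adjusted p = 0.202). A value for the whole gene cannot check the label where an altered transcript is still made, so each direction between genotypes rests on the labels. Of 7 listed genes of conventional dendritic cells, 5 had a row, and Xcr1 and Cd209a had none. Across the 8 libraries Ccr7 lay between 14.22 and 14.81 and Flt3 between 10.32 and 10.87. Clec9a lay far lower, between 5.44 and 5.66. Genes of macrophages were present too, with Csf1r between 13.43 and 13.99. In bulk RNA, fewer cells of a type and less RNA per cell cannot be told apart.

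**Figure D1:**
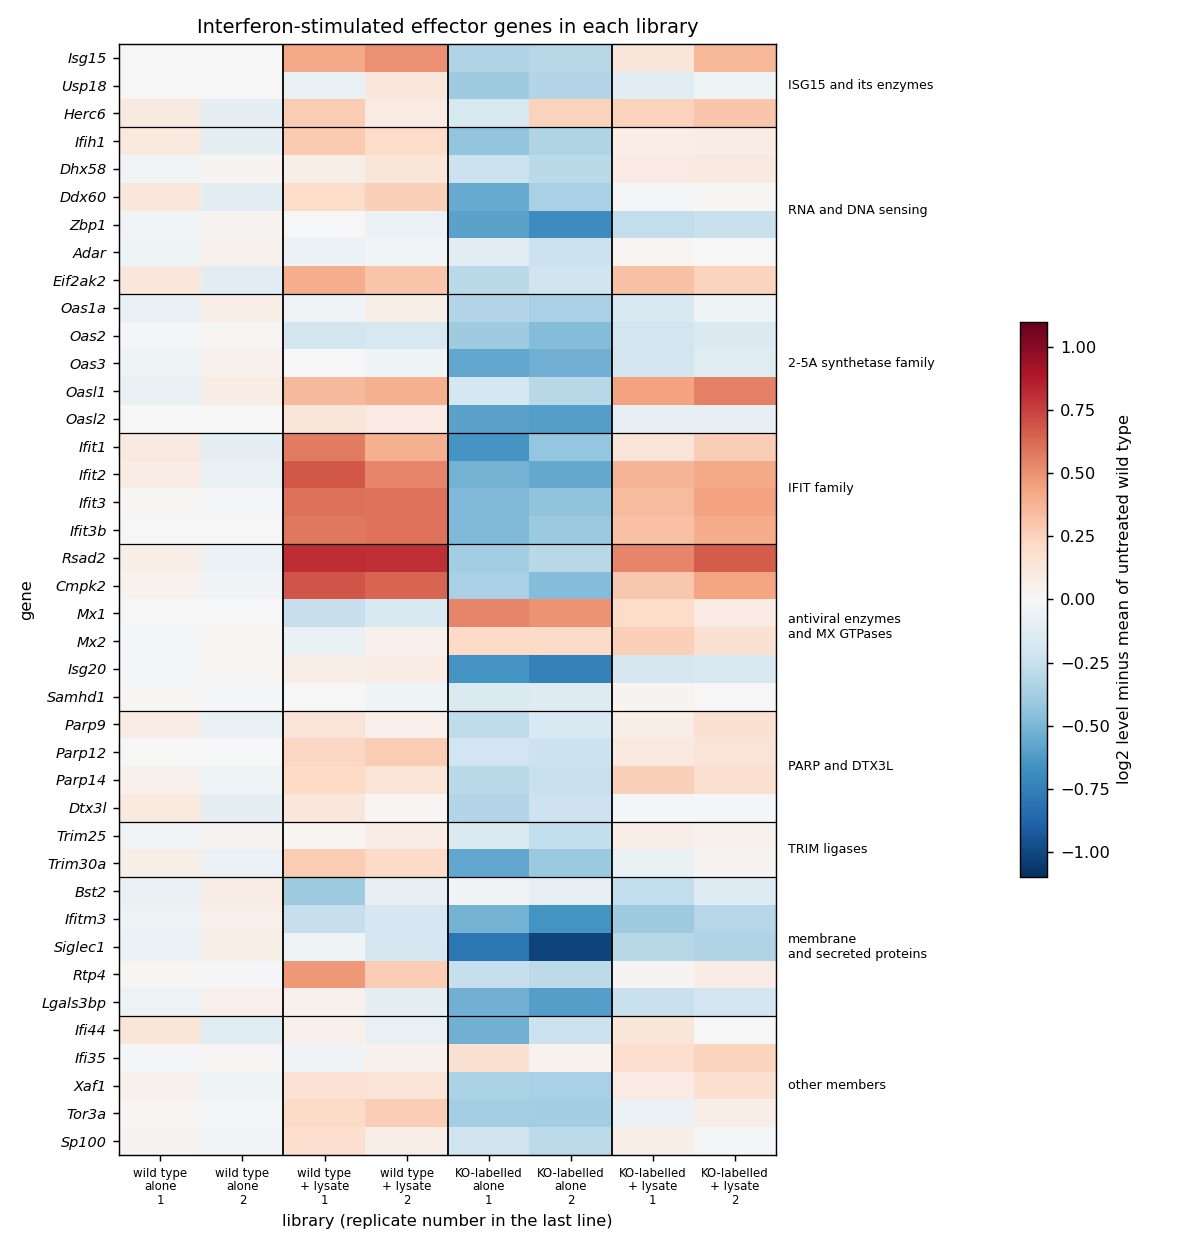
Each row is 1 of the 40 members and each column 1 of the 8 libraries; colour gives the log2 level minus the mean of the 2 untreated wild-type libraries. The untreated KO-labelled libraries have a median difference of -0.35 and -0.32 over the members, while the KO-labelled libraries with lysate have 0.073 and 0.075.

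Untreated KO-labelled cells held less of most of these transcripts than untreated wild-type cells. Of 40 members, 32 were lower (80%, against 9.23% of all genes tested) and 1, Mx1, was higher (2.5%, against 7.02%). The median difference over the members was -0.35 on the log2 scale, against 0.0022 over all genes. Both KO-labelled libraries lay below both wild-type libraries for 35 members, where 26.4% of all genes did so, and above them for 3, where 26.4% did so. The deepest differences were those of Siglec1, Isg20, Zbp1 and Oasl2.

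Siglec1, the sialic acid receptor CD169 of macrophages and activated monocytes, lay at 10.58 and 10.71 in wild type alone, 10.60 and 10.46 in wild type with lysate, 9.85 and 9.63 in KO-labelled alone and 10.34 and 10.32 in KO-labelled with lysate. Its untreated KO-labelled libraries were the lowest of the 8 by a wide margin, 1.88-fold below wild type (-0.91 ± 0.086, adjusted p = 2.21e-05). Isg20, an exonuclease that degrades viral RNA, lay at 8.20 and 8.24 in wild type alone, 8.29 and 8.30 in wild type with lysate, 7.57 and 7.48 in KO-labelled alone and 8.03 and 8.04 in KO-labelled with lysate. All 4 untreated libraries kept apart by genotype label, with a difference of -0.69 ± 0.080 (adjusted p = 9.36e-05). Zbp1, a sensor of Z-form nucleic acids that can start cell death, lay at 10.83 and 10.89 in wild type alone, 10.86 and 10.79 in wild type with lysate, 10.27 and 10.17 in KO-labelled alone and 10.58 and 10.61 in KO-labelled with lysate. It was 1.56-fold lower without lysate (-0.64 ± 0.069, adjusted p = 5.63e-05), and its KO-labelled libraries stayed below all 4 wild-type ones with lysate as well.

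Active 2′-5′-oligoadenylate synthetases make a second messenger that turns on RNase L, which cuts RNA. All 5 of the family among the 40 members, with the synthetase-like Oasl1 and Oasl2 counted in, were lower in untreated KO-labelled cells. Their differences ran from -0.60 (Oasl2) to -0.25 (Oasl1). Oasl2, a family member with ubiquitin-like domains, lay at 12.33 and 12.31 in wild type alone, 12.46 and 12.41 in wild type with lysate, 11.74 and 11.72 in KO-labelled alone and 12.23 and 12.23 in KO-labelled with lysate, and its untreated groups did not overlap (adjusted p = 4.13e-05). The differences were -0.55 for Oas3, -0.43 for Oas2 and -0.34 for Oas1a.

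All 4 IFIT genes, whose products bind viral RNA ends or one another, were lower as well. The differences were -0.54 ± 0.076 for Ifit2, -0.53 ± 0.096 for Ifit1, -0.46 ± 0.064 for Ifit3 and -0.45 ± 0.066 for Ifit3b. Among the nucleic acid sensors, 5 of 6 were lower, with Ddx60 (-0.46), a helicase that aids RNA sensing, and Ifih1 (-0.38), the double-stranded RNA sensor MDA5, next to Zbp1. Dhx58, the helicase LGP2, and Eif2ak2, the kinase PKR that stops translation, differed by -0.27 and -0.26. Adar, which edits adenosine in double-stranded RNA, had a difference of -0.18 ± 0.069 that did not pass the test.

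Isg15, a ubiquitin-like protein joined to others in the interferon response, lay at 10.90 and 10.90 in wild type alone, 11.32 and 11.40 in wild type with lysate, 10.57 and 10.60 in KO-labelled alone and 11.03 and 11.27 in KO-labelled with lysate. Usp18, the protease that removes it and that also damps the interferon receptor, lay at 10.39 and 10.37 in wild type alone, 10.31 and 10.50 in wild type with lysate, 9.99 and 10.05 in KO-labelled alone and 10.26 and 10.33 in KO-labelled with lysate. Both were lower in untreated KO-labelled cells, with differences of -0.32 ± 0.079 and -0.36 ± 0.077. Herc6, the ligase that attaches Isg15 in mouse, lay between 10.14 and 10.62 in the 8 libraries, and its untreated groups overlapped (0.038 ± 0.12).

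Rsad2, the radical SAM enzyme viperin, and its neighbour Cmpk2, a nucleotide kinase, differed by -0.34 ± 0.071 and -0.42 ± 0.075. Of the membrane and secreted proteins, Ifitm3, which blocks virus entry at endosomes, had a difference of -0.59 ± 0.072 and Lgals3bp, a secreted galectin ligand, one of -0.57 ± 0.073, and both were lower. Rtp4, which inhibits viral replication, differed by -0.27. Bst2, the tether (tetherin) that holds budding viruses on the membrane, lay at 12.48 and 12.63 in wild type alone, 12.16 and 12.47 in wild type with lysate, 12.52 and 12.47 in KO-labelled alone and 12.28 and 12.41 in KO-labelled with lysate, and its untreated groups overlapped. The TRIM ligases Trim30a (-0.49) and Trim25 (-0.21), the ADP-ribosyltransferases Parp14 (-0.27) and Parp12 (-0.22) and the ligase Dtx3l (-0.27), a partner of Parp9, were lower too. So were Ifi44 (-0.38), Tor3a (-0.38), the pro-apoptotic Xaf1 (-0.35) and the nuclear body protein Sp100 (-0.25). Samhd1, which hydrolyses dNTPs, had -0.15 ± 0.061 and Parp9 -0.23 ± 0.077, neither past the threshold, and Ifi35 had 0.10 ± 0.089.

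Mx1, a dynamin-like GTPase that blocks influenza virus in the nucleus, went the other way. It lay at 13.15 and 13.15 in wild type alone, 12.89 and 12.98 in wild type with lysate, 13.68 and 13.64 in KO-labelled alone and 13.35 and 13.23 in KO-labelled with lysate. Without lysate it was 1.43-fold higher in KO-labelled cells (0.52 ± 0.067, adjusted p = 0.000202), and its groups did not overlap. Many inbred laboratory strains carry a disrupted Mx1, and the sources used here name no strain. Its paralogue Mx2, next to it on chromosome 16, lay above wild type in both KO-labelled libraries without lysate (0.21 ± 0.072, adjusted p = 0.0587) and missed the threshold.

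**Figure D2:**
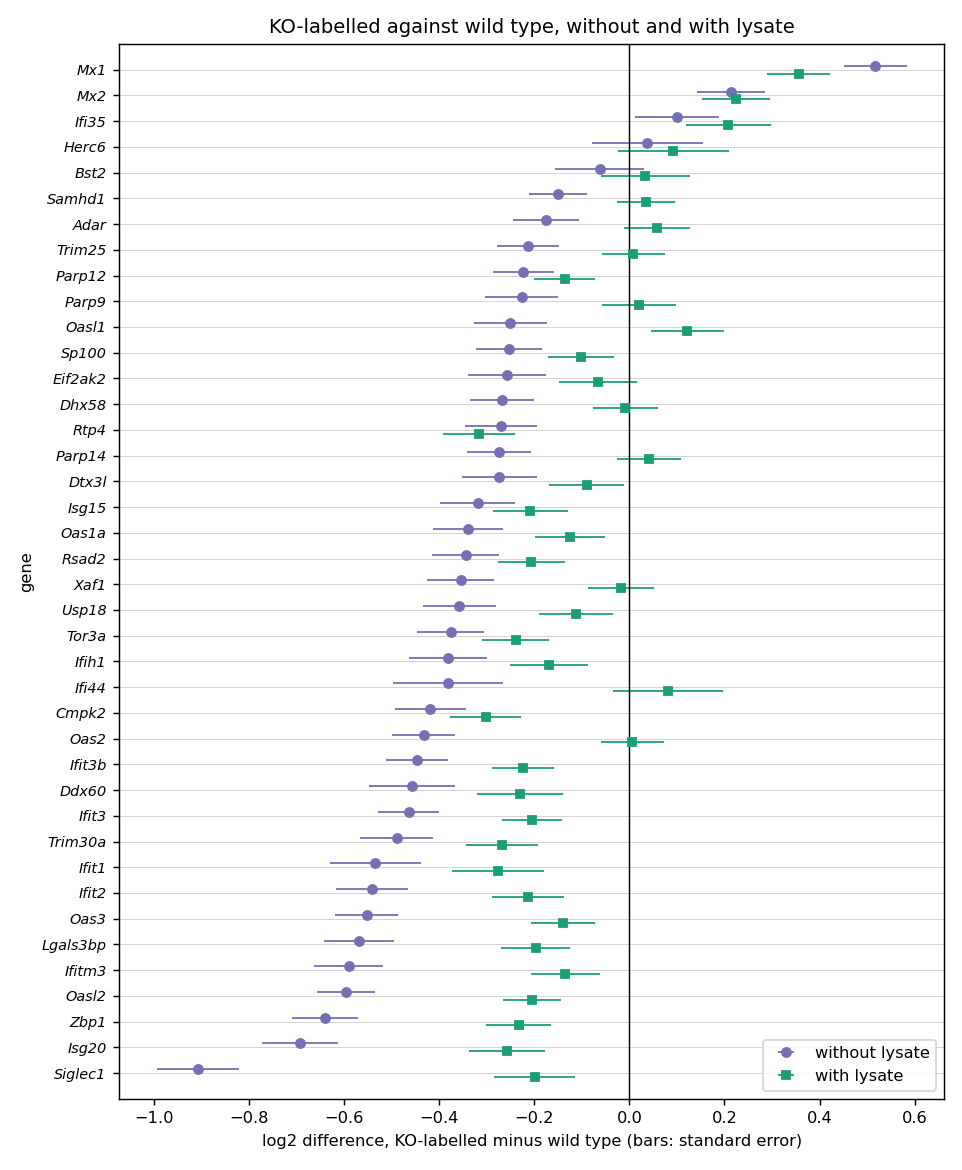
For each of the 40 members, the log2 difference of KO-labelled minus wild type is plotted without lysate (circles) and with lysate (squares), with bars for 1 standard error and genes in the order of the first. Without lysate the median lies at -0.35, with lysate at -0.13, and Mx1 lies right of 0 in both.

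The count of 33 members called without lysate was 22 without wild-type alone replicate 1, the lowest when each library was left out. Of the 33, 19 kept their call under all 21 alternatives, among them Siglec1, Zbp1, Isg20, Oas2, Oas3, Oasl2, the 4 IFIT genes, Cmpk2, Ifitm3, Lgals3bp, Usp18 and Mx1. Leaving out 1 library ended the calls of Isg15, Ifih1, Eif2ak2, Rsad2, Parp12, Parp14, Dtx3l, Trim25, Rtp4, Ifi44 and Sp100 (wild-type alone replicate 1) and of Dhx58, Oas1a and Oasl1 (wild-type alone replicate 2).

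Markers of other cells moved with the same contrast, in which 9.23% of all genes tested were lower and 7.02% higher. Of 9 measured neutrophil markers, 8 were lower in untreated KO-labelled cells, with a median of -1.45, and the log2 of their summed level was 14.00 to 14.07 in wild type and 12.43 to 12.52 in KO-labelled. Ngp, a neutrophil granule protein, differed by -1.55 and S100a9, a calprotectin subunit, by -1.59. Of 12 markers of macrophages and monocytes, 6 were lower, including Ly6c2 (-1.27), a marker of inflammatory monocytes, with summed levels of 15.90 to 15.97 in wild type and 15.62 to 15.71 in KO-labelled. Of 5 measured markers of plasmacytoid dendritic cells, which are strong producers of type I interferon, 0 passed the test by limma (0 also at an unadjusted p of 0.05). Their summed levels were 10.87 to 10.96 in wild type and 10.85 to 10.92 in KO-labelled. Most of that sum is Tcf4 (10.27 and 10.14 in wild type alone) and Runx2 (9.27 and 9.19), while Ccr9 lay at 4.59 and 4.53. Siglech, Ly6d and Cox6a2 had no row, and whether the number of plasmacytoid cells differed was not tested. Of 5 measured markers of conventional dendritic cells, 2 were higher, Zbtb46 (0.42) and Flt3 (0.41), and 1, Itgax (-0.33), was lower. Their summed levels were 14.74 to 14.86 in wild type and 14.91 to 15.03 in KO-labelled. Most of that sum is Ccr7, which did not pass the test here (14.48 and 14.61 in wild type, 14.81 and 14.68 in KO-labelled). The part of these cells in the members' differences was not tested.

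With lysate, 8 members passed the test between genotype labels. Of 40 members, 7 were lower in KO-labelled cells (17.5%, against 5.45% of all genes) and 1, again Mx1, was higher (2.5%, against 7.44%). The median difference was -0.13, against -0.0085 over all genes. Both KO-labelled libraries lay below both wild-type ones for 22 members, where 31% of all genes did so, and above them for 5, where 29.6% did so.

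The 7 lower members were Rtp4, Cmpk2, Trim30a, Tor3a, Zbp1, Ifit3b and Oasl2. Rtp4 lay at 10.52 and 10.49 in wild type alone, 10.98 and 10.78 in wild type with lysate, 10.25 and 10.22 in KO-labelled alone and 10.53 and 10.59 in KO-labelled with lysate, a difference with lysate of -0.32 ± 0.076 (adjusted p = 0.0166). Cmpk2 lay at 10.43 and 10.35 in wild type alone, 11.08 and 11.03 in wild type with lysate, 10.03 and 9.91 in KO-labelled alone and 10.69 and 10.82 in KO-labelled with lysate, a difference of -0.30 ± 0.075 (adjusted p = 0.0191). For both genes every KO-labelled library was below the wild-type libraries of the same treatment. The others differed by -0.27 (Trim30a), -0.24 (Tor3a), -0.23 (Zbp1), -0.22 (Ifit3b) and -0.21 (Oasl2). Mx1 was 1.28-fold higher (0.36 ± 0.067, adjusted p = 0.00453).

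Ifit1 had the third deepest difference (-0.28 ± 0.096) and missed the threshold (adjusted p = 0.0743), as did Isg20 (-0.26, adjusted p = 0.0512) and Ifit3 (-0.20, adjusted p = 0.0513). Siglec1, the deepest without lysate, stood at -0.20 ± 0.086. The smallest differences, with overlapping groups, were 0.0064 ± 0.066 for Oas2, -0.0081 ± 0.068 for Dhx58, 0.0082 ± 0.066 for Trim25 and -0.018 ± 0.070 for Xaf1.

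These calls rested on few libraries. The count of 8 was 0 without KO-labelled lysate replicate 1 by limma (6 members had an unadjusted p under 0.05), 1 when either KO-labelled lysate replicate 2 or wild-type lysate replicate 1 was dropped, 2 when wild-type lysate replicate 2 was dropped, and 12 without either untreated KO-labelled library. No call of the 8 held under all 21 alternatives. Neutrophil markers were lower here too, 9 of 9, where 5.45% of all genes were, with a median of -1.35. Their summed levels were 13.68 to 13.98 in wild type and 12.32 to 12.45 in KO-labelled. Of 12 macrophage and monocyte markers, 3 were lower (25%). Of the 5 markers of conventional dendritic cells 3 were higher, Zbtb46, Ccr7 and Flt3, with a median over the 5 of 0.29. Their summed levels were 14.55 to 14.69 in wild type and 14.88 in both KO-labelled libraries, and most of that sum is Ccr7. The part of these markers' cells in the members' differences was not tested.

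In wild-type cells lysate raised 14 of the members. Of 40 members, 14 rose (35%, against 10.2% of all genes tested) and 2, Mx1 and Ifitm3, fell (5%, against 11.3%). The median change was 0.11, against -0.010 over all genes. Both lysate libraries lay above both untreated ones for 21 members, where 28.5% of all genes did so, and below them for 4, where 32.3% did so. The genes that rose most encode RNA-binding IFIT proteins and the enzyme pair Rsad2 and Cmpk2.

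Rsad2 lay at 12.81 and 12.68 in wild type alone, 13.56 and 13.55 in wild type with lysate, 12.36 and 12.44 in KO-labelled alone and 13.29 and 13.41 in KO-labelled with lysate. In wild type it rose 1.75-fold (0.81 ± 0.071, adjusted p = 8.29e-06). Cmpk2 followed with 1.59-fold (0.67 ± 0.075, adjusted p = 7.23e-05). Within each genotype label, the treated and untreated libraries of both genes were clearly apart.

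Ifit2 lay at 11.75 and 11.59 in wild type alone, 12.36 and 12.21 in wild type with lysate, 11.16 and 11.11 in KO-labelled alone and 12.05 and 12.09 in KO-labelled with lysate. Ifit3 lay at 12.28 and 12.25 in wild type alone, 12.87 and 12.86 in wild type with lysate, 11.78 and 11.83 in KO-labelled alone and 12.61 and 12.71 in KO-labelled with lysate. Its copy Ifit3b lay at 11.50 and 11.51 in wild type alone, 12.09 and 12.10 in wild type with lysate, 11.02 and 11.10 in KO-labelled alone and 11.82 and 11.92 in KO-labelled with lysate. In all 3 genes the order of the groups was the same, from KO-labelled alone through wild type alone and KO-labelled with lysate to wild type with lysate, with no overlap between neighbours. The changes in wild type were 0.61 ± 0.076 for Ifit2, 0.60 ± 0.064 for Ifit3 and 0.59 ± 0.066 for Ifit3b. Ifit1 lay at 10.66 and 10.45 in wild type alone, 11.13 and 10.95 in wild type with lysate, 9.91 and 10.13 in KO-labelled alone and 10.70 and 10.82 in KO-labelled with lysate and changed by 0.48 ± 0.096 (adjusted p = 0.00374).

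Isg15 rose 1.37-fold in wild type (0.46 ± 0.079, adjusted p = 0.00149), while Usp18 (0.027 ± 0.077) did not pass the test and its groups overlapped. Oasl1, which restrains translation of Irf7 mRNA in mouse, lay at 10.41 and 10.57 in wild type alone, 10.85 and 10.88 in wild type with lysate, 10.29 and 10.19 in KO-labelled alone and 10.93 and 11.04 in KO-labelled with lysate. It rose by 0.37 ± 0.077 in wild type, while the other 4 of its family among the 40 members did not pass the test there. Rtp4 (0.37), Eif2ak2 (0.35), Parp12 (0.26), Trim30a (0.25), Ifih1 (0.25) and Tor3a (0.24) made up the rest of the 14. The falls were -0.22 ± 0.072 for Ifitm3 and -0.21 ± 0.067 for Mx1. Bst2 (-0.24 ± 0.094, adjusted p = 0.0828) and Oas2 (-0.19 ± 0.066, adjusted p = 0.0579) lay below their untreated libraries without passing the threshold.

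Of the 16 calls in wild type, 7 held under all 21 alternatives, those of Isg15, Oasl1, Ifit2, Ifit3, Ifit3b, Rsad2 and Cmpk2. The count was 8 without wild-type lysate replicate 1 and 9 without wild-type alone replicate 2. Without the first of these Ifit1, Rtp4, Eif2ak2, Ifih1, Trim30a, Tor3a, Mx1 and Ifitm3 lost their calls, and Parp12 did so without the second. Of 12 macrophage and monocyte markers, 3 rose and 5 fell in the same contrast (25% and 41.7%, against 10.2% and 11.3% of all genes). Among them were Mrc1 (0.86), Cd68 (0.77) and Ly6c2 (-0.60). The 12 markers had summed levels of 15.90 to 15.97 without and 15.91 to 15.93 with lysate. Their part in the members' changes was not tested.

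**Figure D3:**
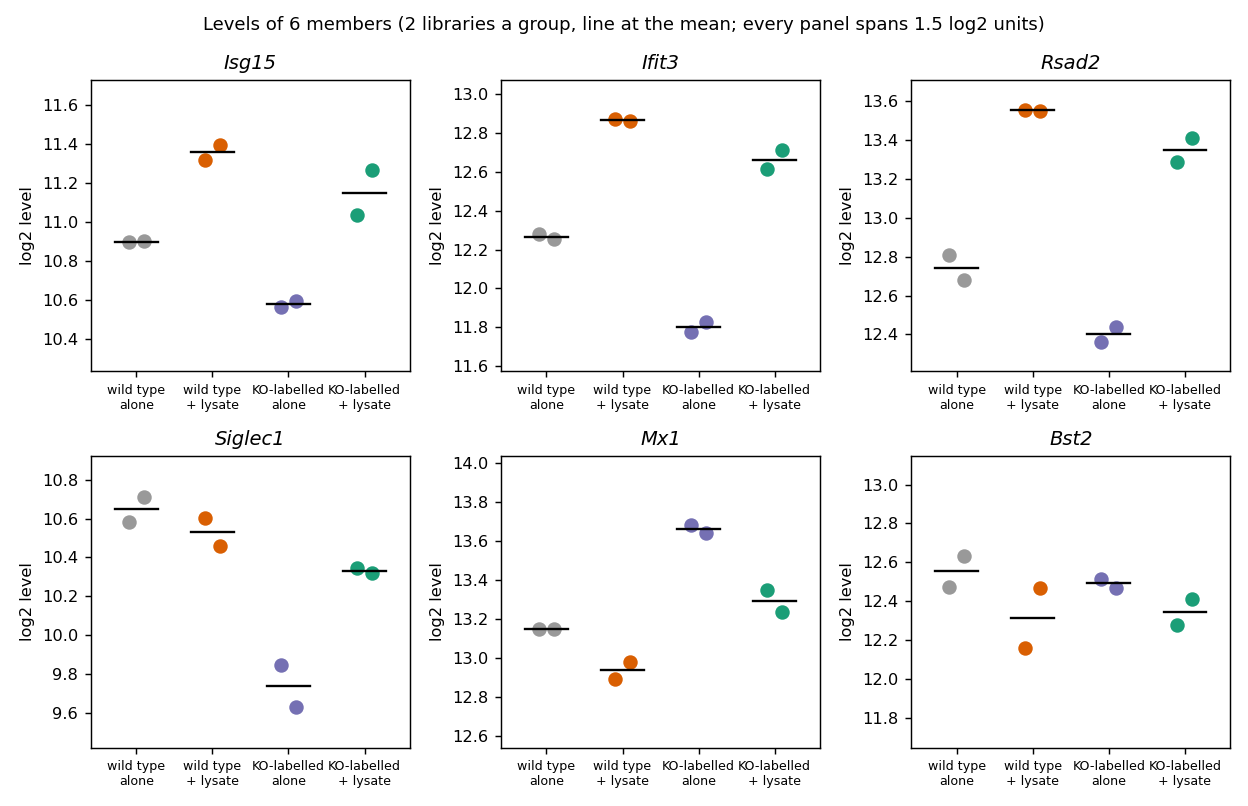
Log2 levels of 6 members in the 8 libraries, with points for libraries and a line at each group's mean; every panel spans 1.5 log2 units. Isg15, Ifit3 and Rsad2 are higher with lysate under both genotype labels, Siglec1 is lowest in untreated KO-labelled cells, Mx1 is highest there, and Bst2 passed no test.

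In KO-labelled cells lysate raised most of the members. Of 40, 32 rose (80%, against 8.28% of all genes tested) and 1, Mx1, fell (2.5%, against 6.92%). The median change was 0.38, against -0.0013 over all genes. Both lysate libraries lay above both untreated ones for 37 members, where 28.9% of all genes did so, and below them for 2, where 30.2% did so. This contrast and that between genotype labels without lysate share the untreated KO-labelled libraries, which were low for most members.

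Rsad2 rose 1.93-fold (0.95 ± 0.071, adjusted p = 3.08e-06) and Ifit2 1.92-fold (0.94 ± 0.076). Ifit3 (0.86), Ifit3b (0.81), Cmpk2 (0.78), Oasl1 (0.75) and Ifit1 (0.74) came next. All of these also rose in wild type.

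Siglec1 rose by 0.59 ± 0.086 (adjusted p = 0.000605), while in wild type its change was -0.12 ± 0.086 with overlapping libraries. Isg15 rose by 0.57 ± 0.079. Usp18 rose by 0.27 ± 0.077, and Dhx58, at 10.37 and 10.43 in wild type alone, 10.47 and 10.54 in wild type with lysate, 10.16 and 10.10 in KO-labelled alone and 10.49 and 10.50 in KO-labelled with lysate, by 0.36 ± 0.068. For Dhx58 the untreated KO-labelled libraries were the lowest, and the libraries of the other groups lay close together. Isg20 (0.51), Eif2ak2 (0.54), Oasl2 (0.50), Parp14 (0.49) and Xaf1 (0.49) also rose.

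All 4 of the PARP and DTX3L group rose, with Parp9 at 0.35, Parp12 at 0.34 and Dtx3l at 0.26, as did both TRIM ligases, with Trim30a at 0.47 and Trim25 at 0.27. Among the sensors 5 of 6 rose, including Ifih1 (0.46), Ddx60 (0.46) and Zbp1 (0.38). Of the oligoadenylate synthetases Oas3 (0.39) and Oas2 (0.25) rose, and Oas1a (0.23 ± 0.074, adjusted p = 0.0548) did not pass. Lgals3bp (0.34), Rtp4 (0.33), Ifitm3 (0.24), Tor3a (0.38), Ifi44 (0.45) and Sp100 (0.27) completed the rises. Mx1 fell by 0.37 on the log2 scale (adjusted p = 0.00245). Bst2, Mx2, Ifi35, Samhd1, Adar and Herc6 passed no test in this contrast, with changes between -0.15 and 0.24.

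The count of 33 was 18 without KO-labelled lysate replicate 2. The 15 calls lost without it were those of Usp18, Dhx58, Ddx60, Oas2, Mx1, Parp9, Parp12, Dtx3l, Trim25, Ifitm3, Rtp4, Lgals3bp, Ifi44, Tor3a and Sp100. The calls of 18 members held under all 21 alternatives. Pigment cell transcripts were higher in the same libraries, 6 of 6 in each genotype label, with Dct, a melanin synthesis enzyme, changing by 1.13 in wild type and 1.31 in KO-labelled cells. Their log2 summed level was 16.15 to 16.19 in wild type alone, 16.84 to 16.85 with lysate, 16.04 to 16.10 in KO-labelled alone and 16.65 to 16.68 with lysate. Most of that sum is Gpnmb, which macrophages also make. How much of the members' RNA came from melanoma cells was not tested. Of 9 neutrophil markers, 0 rose and 2 fell with lysate under each genotype label (22.2%, against 11.3% of all genes in wild type and 6.92% in KO-labelled cells). Of 12 macrophage and monocyte markers, 3 rose and 1 fell in KO-labelled cells (25% and 8.33%, against 8.28% and 6.92% of all genes). Cd68 changed by 0.61 and Mrc1 by 0.55. Summed levels of the 12 were 15.62 to 15.71 without and 15.71 to 15.75 with lysate. The part of these markers' cells in the members' changes was not tested.

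**Figure D4:**
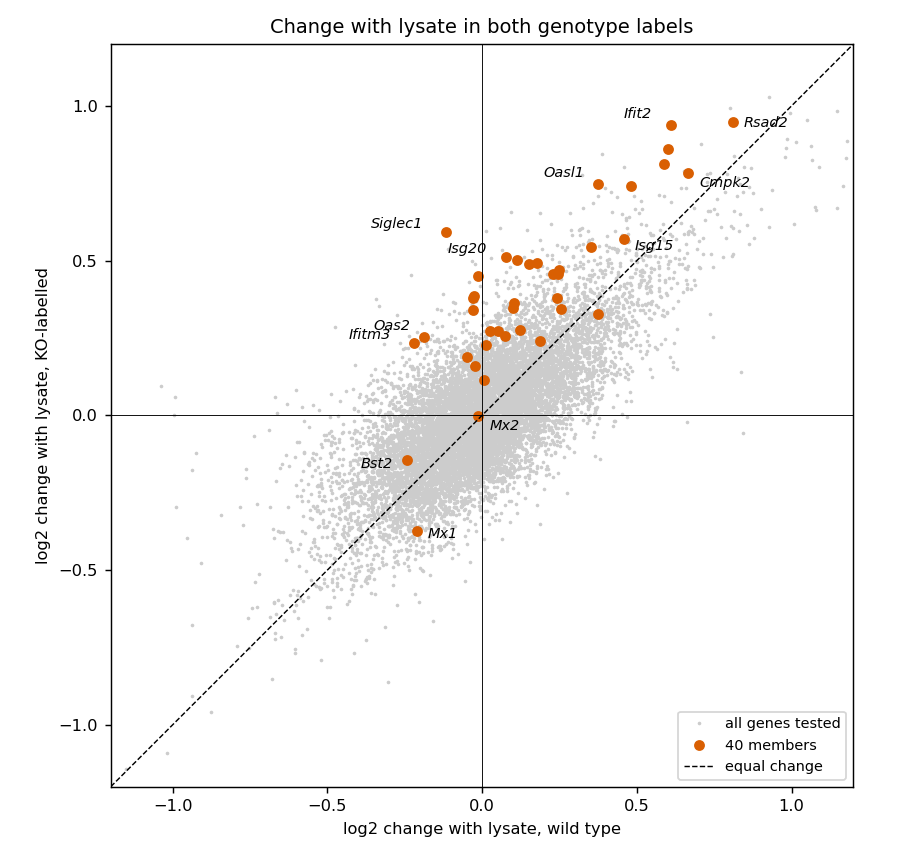
Log2 change with lysate in wild type (x axis) and in KO-labelled cells (y axis), with the 40 members in orange, all genes tested in grey and a dashed line at equal change. Of the members, 38 lie above the line; both axes are cut at 1.2, which leaves some genes other than members outside.

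The change with lysate was more positive in KO-labelled than in wild-type cells for 38 of the 40 members, where 50.3% of all genes lay that way, and Mx1 and Rtp4 were the exceptions. The median difference of the 2 changes was 0.23, against 0.00089 over all genes. It uses the same untreated libraries as the comparison of genotype labels without lysate, where the members' median was -0.35. The 2 results are therefore not independent. As a test of each gene, 1 member passed, Siglec1 (0.71 ± 0.12, adjusted p = 0.0481), so 2.5% of members against 0.11% of all genes. No member passed in the other direction, nor did any other gene (0%). At an unadjusted p of 0.05 in limma, 20 of the 40 members lay past the threshold, as did 980 of all 11785 genes.

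The next members in size were Ifi44, Ifitm3 and Oas2. Ifi44, a cytoplasmic antiviral protein, lay at 8.14 and 7.87 in wild type alone, 8.06 and 7.92 in wild type with lysate, 7.48 and 7.77 in KO-labelled alone and 8.14 and 8.01 in KO-labelled with lysate. The libraries within its untreated groups stood well apart, and the difference of its changes was 0.46 ± 0.16 (adjusted p = 0.457). Ifitm3 lay at 12.17 and 12.28 in wild type alone, 11.97 and 12.04 in wild type with lysate, 11.70 and 11.57 in KO-labelled alone and 11.83 and 11.91 in KO-labelled with lysate, and Oas2 at 11.23 and 11.25 in wild type alone, 11.04 and 11.07 in wild type with lysate, 10.85 and 10.76 in KO-labelled alone and 11.03 and 11.08 in KO-labelled with lysate. For both genes the lysate libraries lay below the untreated ones in wild type and above them in KO-labelled cells, with differences of 0.46 ± 0.10 (adjusted p = 0.2) and 0.44 ± 0.093 (adjusted p = 0.152). Isg15 (0.11 ± 0.11), Cmpk2 (0.12 ± 0.11) and Rsad2 (0.14 ± 0.10) had small differences beside their errors. The call of Siglec1 was lost without any 1 of the wild-type libraries or the KO-labelled lysate libraries, where 0 members were called by limma (13 to 21 at an unadjusted p of 0.05), and held without either untreated KO-labelled library, where 2 and 1 members were called. Among the macrophage and monocyte markers, Ly6c2 passed the same test (0.68, adjusted p = 0.026), and its part in the difference of Siglec1 was not tested.

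KO-labelled cells with lysate and wild-type cells without it share no library and differ in both genotype label and treatment. Both libraries of the first lay above both of the second for 19 members, where 30.8% of all genes did so, and below for 10, where 31.2% did so. Rsad2, Oasl1, Ifit2 and Ifit3 were among those above, and Siglec1, Zbp1, Ifitm3 and Isg20 among those below.

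Upstream of the members, calls went in both directions. Over all genes tested, 9.23% were lower and 7.02% higher in KO-labelled cells without lysate, and 5.45% lower and 7.44% higher with it. Lysate raised 10.2% and lowered 11.3% in wild type, and raised 8.28% and lowered 6.92% in KO-labelled cells. Transcripts of interferon itself could not be analysed here. None of the 10 ligands listed (Ifnb1, Ifna1, Ifna2, Ifna4, Ifna5 and Ifng among them) had a row. Of 6 measured receptor chains, 3 were lower in KO-labelled cells without lysate and 3 with lysate, and in both they were Ifngr1 (-0.36 and -0.27), Il10rb (-0.25 and -0.22) and the interferon receptor chain Ifnar2 (-0.25 and -0.22). Of 24 sensors and adaptors, 9 were lower and 1 higher without lysate, led by the TLR4 adaptor Ticam2 (-0.60) and the RNA sensor Ddx58 (-0.47), while lysate raised 4 and lowered 4 in wild type and raised 7 and lowered 1 in KO-labelled cells. Tlr7, a sensor of single-stranded RNA, rose with lysate by 0.41 in wild type and 0.54 in KO-labelled cells, and Tlr3, a sensor of double-stranded RNA, by 0.45 and 0.49.

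Of 16 signal transducers, 2 were lower and 4 higher in KO-labelled cells without lysate (12.5% and 25%, against 9.23% and 7.02% of all genes). Irf7, the factor that amplifies interferon production, was lower (-0.73), whereas Irf1 (0.30), Irf8 (0.34) and the kinase Jak2 (0.35) were higher. Irf7 fell with lysate in wild type (-0.23) and rose in KO-labelled cells (0.45), and its difference of changes passed the test (0.68, adjusted p = 0.026). Stat2 (0.36), a transcription factor of the interferon signal, rose with lysate in KO-labelled cells. Between genotype labels with lysate, 5 of the 16 were higher and 0 lower in KO-labelled cells (31.2% and 0%, against 7.44% and 5.45%). Lysate raised 0 and lowered 5 of them in wild type (0% and 31.2%, against 10.2% and 11.3%). In KO-labelled cells it raised 3 and lowered 2 (18.8% and 12.5%, against 8.28% and 6.92%). Of 19 negative regulators, 2 were lower in KO-labelled than in wild-type cells without lysate (10.5%, against 9.23% of all genes). With lysate, 2 were higher (10.5%, against 7.44%). Both shares are near those of all genes. Between KO-labelled cells with and without lysate, 0 of the 19 passed in either direction by limma, against 15.2% of all genes. At an unadjusted p of 0.05, 4 of the 19 passed, as did 3535 of all 11785 genes.

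Of 51 measured interferon-induced genes outside the 40, 23 were lower and 4 higher in KO-labelled cells without lysate (45.1% and 7.84%, against 9.23% and 7.02% of all genes). With lysate 6 were lower and 6 higher (11.8% each, against 5.45% and 7.44%). Lysate raised 11 and lowered 7 in wild type (21.6% and 13.7%, against 10.2% and 11.3% of all genes). In KO-labelled cells it raised 22 and lowered 3 (43.1% and 5.88%, against 8.28% and 6.92%). Trim30d, a close relative of the member Trim30a, differed by -0.76 without lysate and rose by 0.65 with it in KO-labelled cells, and Ly6e, a surface protein that restricts virus entry, differed by -0.74. Epsti1, also interferon-induced, fell with lysate in wild type (-0.36) and in KO-labelled cells (-0.53). Of 8 interferon-induced chemokines, 4 were lower without lysate in KO-labelled cells, with Cxcl10, a ligand of the chemokine receptor CXCR3 on T cells, at -0.68 and, with lysate, at -0.57. Cxcl10 lay at 8.99 and 8.96 in wild type alone, 9.43 and 9.37 in wild type with lysate, 8.18 and 8.41 in KO-labelled alone and 8.78 and 8.89 in KO-labelled with lysate, so its KO-labelled libraries were below the wild-type ones of the same treatment in every case.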

How the data were processed

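RNA from purified dendritic cells was made into stranded mRNA libraries, per the labels' protocols. Of 12 samples, the 8 RNA-seq libraries had a column and the other 4 were not analysed here. The deposited log2 values are read as DESeq2's regularized logarithm of the authors' gene counts, from the table's name and because the submitters' processing notes name DESeq2. These notes also name STAR, deepTools and mm9. The sources used here do not give the counting tool, its strand setting or the annotation. The regularized logarithm pulls low-count genes together across libraries, which understates how much they change, and depth is unknown. Values lay between 3.24 and 17.88, with library medians of 8.53 to 8.55.

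Entrez identifiers were matched to RefSeq symbols of GRCm38.p6 (11744 of 11786), and promoter windows to the same assembly, while the values rest on mm9, for which no coordinate is given. Genes with a largest group mean of at least 4 were tested (11785; 1 removed) with limma 3.58.1 in R 4.3.3 (group means of 8 libraries, eBayes with trend, two-sided, Benjamini-Hochberg over all genes, 4 residual and 9.33 prior degrees of freedom), checked on simulated data. Figures were drawn with Python 3.11.15.

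The members, gene lists and tests were chosen with earlier results of these data known. All members may be named; values in every library are given for 12 listed members, Ythdf1, and the 4 with the largest change in each contrast, and other lists name at most the 4 genes with the smallest p in a contrast. The levels of Ccr7, Flt3, Clec9a, Csf1r, Herc6, Cxcl10, Tcf4, Runx2 and Ccr9 were chosen after their values were seen. So were the remarks on which genes make up a summed level, Gpnmb among them. Near-identical or neighbouring genes (Ifit3 and Ifit3b, Trim30a and Trim30d, Oas1a and its copies, Mx1 and Mx2, Rsad2 and Cmpk2, Parp9 and Dtx3l) could have shared reads. Alternatives were a fit with a replicate block, the filter dropped or set at 6, median centring, quantile normalization, 2 variance models, a fit of the compared groups, thresholds of 0.01 and 0.10, values corrected for a GC and length trend per library (with and without the block; 39 of 40 members had values) and leaving out each library. A crossed replicate block was added after seeing the data.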

Additional observations from a re-analysis of the deposited data

Results flagged for a closer look

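The change of Siglec1 with lysate differed between genotype labels by the test of the difference itself (0.71 on the log2 scale, SE 0.12, adjusted p = 0.0481 by limma). This call was lost under 12 of 21 alternatives, among them the replicate block and 6 of the 8 fits that leave out 1 library. For Ifitm3 (0.46) and Oas2 (0.44) every wild-type library with lysate lay below the untreated wild-type ones. Every KO-labelled library with lysate lay above the untreated KO-labelled ones. The test of the difference did not pass for either gene (adjusted p = 0.2 and 0.152 by limma).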

How the results depend on the processing

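Every called member kept its direction under every one of the 21 alternatives. Most of these could not alter a direction. Filters, thresholds, variance models, replicate blocks, the fit of the compared groups and leaving out a library outside a comparison keep the same change. Only median centring, quantile normalization, the GC and length correction and leaving out a compared library could alter it. In wild type 16 members were called with lysate, 10 at a threshold of 0.01 and 8 to 18 with 1 library left out. In KO-labelled cells the count of 33 ranged from 18 to 34 with 1 library left out. Between genotype labels without lysate the count of 33 ranged from 22 to 30 in this way. With lysate the count of 8 between genotype labels ranged from 0 to 12 with 1 library left out, and was 3 with the replicate block, 5 with quantile normalization, 4 without the variance trend, 1 at a threshold of 0.01, 16 at 0.10, 16 in a fit of the compared groups, 19 with the GC and length trend removed, 17 with the replicate block in addition and 17 with the crossed replicate block. The count of 1 for how the lysate changes differ ranged from 0 to 2 with 1 library left out, and was 0 with the replicate block, a filter at 6, median centring, quantile normalization, no variance trend or a threshold of 0.01 (15 to 21 members had an unadjusted p under 0.05 in limma), 8 with the GC and length trend removed, 5 with the replicate block in addition and 6 with the crossed replicate block. Counts over all genes shifted in the same settings. Between genotype labels with lysate, 1519 genes were called in the main fit and 1086 with the replicate block. A fit of the compared groups called 2265 and removal of the GC and length trend 2700. For how the lysate changes differ, these counts were 13 in the main fit, 1 with the replicate block and 82 with that trend removed. The cause of these shifts was not tested. Nothing in the labels pairs the replicate numbers. The gaps between replicates 1 and 2 correlated over genes at between -0.61 and 0.26 across pairs of groups, and at -0.61 for the untreated groups, which is why the crossed block was added. Because that block was set to follow gaps seen in these data, higher counts with it can come from this choice and give no independent support. With the replicate block 12 members were called with lysate in wild type, 31 in KO-labelled cells and 27 between genotype labels without lysate. With no counts, the depth that limits low genes is unknown.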

Other observations

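Of the 40 members, 4 lie on chromosome 2, which also carries Ythdf1 itself. They are Siglec1, Zbp1, Ifih1 and Samhd1, with differences between KO-labelled and wild type without lysate of -0.91, -0.64, -0.38 and -0.15, of which that of Samhd1 did not pass the test. Of all 40 members, 32 (80%) were lower in this contrast. Distances from Ythdf1 and the share of all genes on this chromosome were not examined, and a part of position was not tested. Chromosome 16 carries 6 members, of which Mx1 (0.52) and Mx2 (0.21) lay above wild type and Parp9 (-0.23), Parp14 (-0.27), Dtx3l (-0.27) and Rtp4 (-0.27) below.

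Across the 40 members, the changes with lysate in wild-type and KO-labelled cells, which share no library, had a Pearson r of 0.82 and a Spearman rho of 0.74, against 0.75 and 0.70 over all 11785 genes. Genes are not independent replicates, and the members were chosen for a shared response. The median gap between the 2 libraries of a group over the members was, on the log2 scale, 0.095 without and 0.074 with lysate in wild type, and 0.075 without and 0.076 with lysate in KO-labelled cells. Over all genes these gaps were 0.097, 0.089, 0.10 and 0.069.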
